A study of Mus musculus with 2 samples.

Results

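Linker histones bind the DNA between nucleosomes, and histone variants replace the standard core histones in part of the chromatin. The 10 genes described here are H1f0, H1fx and Hist1h1c, which code for linker histones, Hist1h2bc, which codes for a core histone H2B, H2afz, H2afv, H2afx and H2afy, which code for variants of H2A, and H3f3a and H3f3b, which code for the H3 variant that is laid down outside DNA replication. They were chosen by their symbols, and all 10 were found among the 27998 genes of the count tables. Most core histone genes are transcribed in S phase and give RNAs that end in a stem-loop without a poly(A) tail. Genes for variants are usually transcribed throughout the cell cycle and give polyadenylated RNA, which the poly(A)-primed assay used here captures. In red cell formation, chromatin condenses strongly before the nucleus is expelled from definitive erythroblasts, which makes the supply of histone RNA along this path of interest.

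The data are droplet-based scRNA-seq counts from the liver of 1 wild-type mouse embryo at E12.5, of strain C57BL/6 by the labels and C57BL/6J by the methods. One cell suspension was cleared of debris, dead cells and doublets by FACS and was then split into 2 technical replicate libraries, called library 1 and library 2. The study deposited unique molecular identifier (UMI) counts, in which each captured RNA molecule is counted once, with a name for every kept cell. No treatment and no second genotype were part of these samples, so the comparisons are between groups of cells within 1 liver.

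The cell groups used numbered 13: HSPC (hematopoietic stem and progenitor cells, spelled HPSC in the deposited table), the numbered erythroid clusters Ery 1 to Ery 6, EryP, Mk (megakaryocytes), G (granulocytes), Mo/KC (monocytes and Kupffer cells), EC (endothelial cells) and Hepa. In the deposited table, Ery 1 and Ery 2 carry the type name Ery (erythroid-committed progenitors), and Ery 3 to Ery 6 the type name Eryb (erythroblasts). The names EryP and Hepa are used as deposited. Embryonic globin genes were highest in EryP and Alb, Afp and Ttr in Hepa. Of the markers of each type, all were highest in their own group except 1 of 3 for HSPC and 1 of 5 for the erythroid clusters, in either library.

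Library 1 held 5480 kept cells with a median of 6261 UMIs, and library 2 held 5057 with a median of 9774. The shallowest kept cell had 504 UMIs in library 1 but 4387 in library 2, and 31 cell barcodes were found in both. A level is given as CPM, the UMIs of a gene per 1000000 UMIs of all cells of a group. Since a UMI stands for 1 captured molecule whatever its length, levels of different genes need no length correction. They compare captured RNA only, and genes can differ in how much of their RNA is captured. Intervals are exact 95% intervals and cover counting error only. With 1 liver and technical libraries there is no replicate of the animal and cells are not replicates, so no p-value is given, and a difference is held against its counting interval and its size in the other library.

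Globin RNA sets the scale of these levels. Globin genes made up 1.07% and 2.37% of UMIs in Ery 1 in libraries 1 and 2, and 58.1% and 78.5% in Ery 6. Median depth fell over the same clusters, from 26146 and 25977 UMIs per cell to 4378 and 7882.5. For this reason, levels along the erythroid path are also given as CPM without globin UMIs and as UMIs per cell.

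The 3 linker histone genes followed different courses. H1f0 codes for a replacement linker histone that builds up in cells leaving proliferation, H1fx for a distant member of the family, and Hist1h1c for a main somatic form. H1f0 was highest in EC, at 332 CPM (266 to 410) and 335 CPM (289 to 386), the values of library 1 being given first here and throughout. EC had only 20 and 26 cells, with 87 and 190 UMIs of H1f0, and the spread between cells is not in the intervals. Mk followed at 227 and 180 CPM. Along the erythroid path H1f0 held 73.7 and 73.2 CPM in Ery 1, 91.8 and 80.3 CPM in Ery 3 and 38.1 and 17.1 CPM in Ery 4. In Ery 6 its counts were 71 and 50 UMIs, with intervals of 9.74 to 15.7 CPM and 3.75 to 6.65 CPM. H1f0 thus had its lowest levels in the late erythroid clusters and in EryP, where 1 UMI was counted in library 1 and none in library 2, which allows up to 3.11 CPM.

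H1fx was highest in HSPC, EC, Mk and Hepa. It reached 44.4 CPM (37.6 to 52.0) and 45.1 CPM (38.0 to 53.2) in HSPC, and these 4 groups could not be ordered, since their intervals overlapped. In Ery 1 its level was 9.32 and 10.6 CPM, and in Ery 2 to Ery 6 it lay between 0 and 0.693 CPM. Free RNA, measured in barcodes with 1 to 50 UMIs, held H1fx at 12.7 and 5.10 CPM. The Ery 1 level of H1fx was below the first of these values and above the second.

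Hist1h1c was higher in the late erythroid clusters than in Ery 1. Its level was 28.4 CPM (25.1 to 31.9) and 24.6 CPM (21.5 to 28.0) in Ery 1, no different within its interval from HSPC at 25.2 and 24.6 CPM. It was 155 and 112 CPM in Ery 3, 416 and 234 CPM in Ery 4, and 561 CPM (534 to 589) and 287 CPM (273 to 301) in Ery 5. Within the erythroid path, Ery 5 was the highest and stood apart from its neighbours in the order in both libraries. Ery 6 held 258 and 128 CPM and EryP 121 and 69.4 CPM.

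The share of cells with a Hist1h1c UMI was also higher in Ery 5 than in Ery 1. It was 42.4% in Ery 1 and 82.1% in Ery 5 in library 1, and 40.4% and 79.3% in library 2. With each cell thinned to 3600 UMIs, the shares were 8.96% of 375 and 71.0% of 477 cells in library 1, and 9.04% of 359 and 53.9% of 590 cells in library 2. The thinning left out shallower cells only in Ery 5 of library 1, which has 497 cells. At equal depth, the gap between the clusters was wider than in the unthinned cells. Free RNA held Hist1h1c at 174 and 130 CPM, so that 10% of free RNA in a cell would give more than 10 CPM of the 28.4 and 24.6 CPM in Ery 1. Its part in the shares of Ery 1 was not tested.

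Among 7 linker histone genes, the balance between H1f0 and Hist1h1c turned over between Ery 1 and Ery 6. H1f0 made up 42.4% (40.0 to 44.8) and 39.1% (36.8 to 41.4) of their UMIs in Ery 1, and 3.37% and 2.68% in Ery 6. Hist1h1c rose from 16.3% (14.6 to 18.1) and 13.1% (11.5 to 14.8) to 69.9% (67.9 to 71.8) and 67.7% (65.6 to 69.9). In Ery 4, H1f0 made up 3.40% and 2.50% and Hist1h1c 37.1% and 34.3%. In Ery 5, H1f0 made up 1.70% and 0.723% and Hist1h1c 45.0% and 41.8%. Most linker histone UMIs of both clusters thus came from the other genes of the 7. In EryP, Hist1h1c made up 81.1% and 80.7% of linker histone UMIs, whereas H1f0 made up 69.6% and 74.8% in EC. The summed level of the 7 genes was 174 and 188 CPM in Ery 1, 1246 and 685 CPM in Ery 5 and 370 and 189 CPM in Ery 6. These shares and sums cover captured RNA only, since RNA that ends at a stem-loop without a poly(A) tail was not measured.

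**Figure D1:**
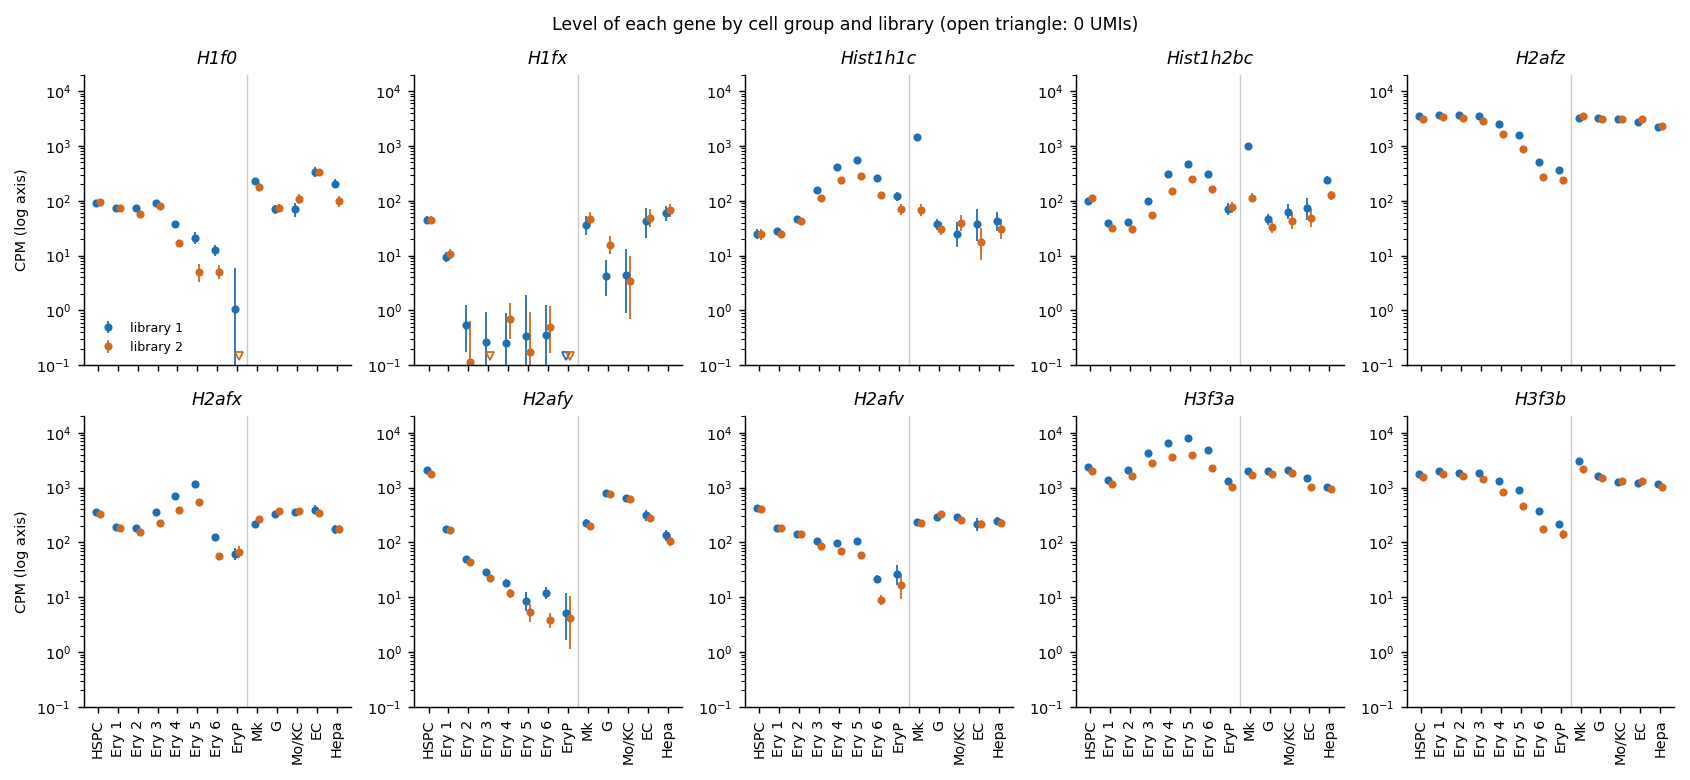
CPM (log axis) of each of the 10 genes in 13 cell groups, with library 1 in blue, library 2 in orange, exact 95% counting intervals as bars and open triangles for groups without a UMI. Hist1h1c, Hist1h2bc, H2afx and H3f3a have their erythroid peak in Ery 5, whereas H2afy drops from 2069 and 1777 CPM in HSPC to 12.1 and 3.84 CPM in Ery 6.

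Hist1h1c and H2afx also carry the stem-loop that ends the RNAs of replication-dependent histone genes. The 26-base windows around it are shown because they bear on which RNA of these genes a poly(A)-primed assay can count. Capitals mark the 16 bases of the stem-loop, a 6-base stem around a 4-base loop, in the GRCm38 genome on the + strand:
Hist1h1c, chr13:23739507-23739532: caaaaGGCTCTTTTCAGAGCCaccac
H2afx, chr9:44335235-44335260: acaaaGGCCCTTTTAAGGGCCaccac
The stem-loop starts 25 bases after the stop codon in Hist1h1c and 47 bases after it in H2afx. Both annotated 3′ UTRs run on past it, to 880 and 884 bases, and both hold a poly(A) signal within their last 50 bases. The pattern was found in 130 of 21877 protein-coding genes (0.594%). Of the genes with a Hist symbol, Hist1h1c among them, 44 of 67 (65.7%) held it. Counts of these genes cover RNA with a poly(A) tail or an internal A-rich site, and RNA that ends at the stem-loop was not measured.

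Hist1h2bc, an H2B gene of the histone cluster on chromosome 13, ran beside Hist1h1c. Its annotated model has 2 exons, lies at chr13:23684199-23692908 on the + strand, and holds no stem-loop. Its level was 39.3 CPM (35.5 to 43.4) and 31.2 CPM (27.7 to 35.0) in Ery 1, 312 and 151 CPM in Ery 4, and 468 and 248 CPM in Ery 5. In Ery 6 it was 309 and 166 CPM. Unlike Hist1h1c, it was well above its Ery 1 level in HSPC, at 100 CPM (89.7 to 111) and 112 CPM (101 to 125), and in Hepa at 239 and 125 CPM.

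The H2A variants were high early and low late, with H2afx as the exception. H2afz and H2afv code for the 2 forms of H2A.Z, a variant found around promoters, H2afx for H2A.X, which is phosphorylated at DNA breaks, and H2afy for macroH2A1, a large variant known from silenced chromatin. H2afz was the highest of the 4 genes in each of the 13 groups of both libraries. It stood at 3440 and 3138 CPM in HSPC, 3630 and 3372 CPM in Ery 1, 1596 and 891 CPM in Ery 5 and 516 and 272 CPM in Ery 6. H2afv, its close relative, fell earlier, from 427 and 401 CPM in HSPC to 182 and 185 CPM in Ery 1 and 21.6 and 8.98 CPM in Ery 6. H2afz made up 89.0% and 88.7% of the UMIs of the pair in HSPC, 95.2% and 94.8% in Ery 1, and 96.0% and 96.8% in Ery 6.

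H2afy was the gene most tied to the progenitors. Its level was 2069 CPM (2022 to 2118) and 1777 CPM (1731 to 1824) in HSPC, next 805 and 751 CPM in G and 653 and 608 CPM in Mo/KC. In Ery 1 it was 172 and 166 CPM and in Ery 2 it was 49.5 and 43.4 CPM. In CPM, H2afy was thus lower in each of Ery 1 to Ery 4 than in the cluster before, with intervals apart. Without globin UMIs the last of these steps was small, from 33.8 and 31.1 CPM in Ery 3 to 28.6 and 27.6 CPM in Ery 4. No intervals were computed on that scale. After thinning, 99.0% and 98.2% of HSPC cells had a UMI of H2afy (100% and 100% before), against 44.8% and 44.7% of Ery 1 cells (93.1% and 92.5%). In Ery 6 the thinned shares were 4.18% and 1.30% (5.42% and 3.23%). Free RNA held H2afy at 168 and 103 CPM, and 10% of free RNA in a cell would give more than the 12.1 and 3.84 CPM found in Ery 6.

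In CPM, H2afx rose from Ery 1 to Ery 5, where the other H2A variants fell. It was 188 and 185 CPM in Ery 1, 356 and 229 CPM in Ery 3, 714 and 392 CPM in Ery 4 and 1171 CPM (1132 to 1211) and 555 CPM (536 to 575) in Ery 5. In Ery 6 it was back at 123 CPM (114 to 133) and 56.0 CPM (51.5 to 60.9), and EryP held 61.6 and 66.3 CPM. The drop from Ery 5 to Ery 6 was also seen without globin UMIs, where H2afx was at 2397 and 2082 CPM in Ery 5 and 294 and 260 CPM in Ery 6. On that scale H2afv went from 184 and 189 CPM in Ery 1 to 124 and 120 CPM in Ery 3. It was higher again in Ery 5, at 213 and 218 CPM, and at 51.5 and 41.8 CPM in Ery 6. H2afz was at 3669 and 3454 CPM in Ery 1 and 3267 and 3340 CPM in Ery 5. H2afy still fell, from 174 and 170 CPM to 17.5 and 19.8 CPM.

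H3f3a and H3f3b code for the same protein from different genes. Their coding sequences have the same length, 411 bases, and differ at 95 bases, 81 of them at the third codon position. Of 136 codons, 83 differ and 0 change the amino acid. The first 60 coding bases are shown because they make this visible, with the 13 differing bases in capitals:
H3f3a: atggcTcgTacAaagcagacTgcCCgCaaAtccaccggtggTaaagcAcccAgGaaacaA
H3f3b: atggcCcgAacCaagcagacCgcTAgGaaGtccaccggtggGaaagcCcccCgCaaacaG
The pair of H2A.Z genes is less strictly held. H2afz and H2afv have 387 coding bases each and differ at 81 of them, 70 at the third position, and 3 of 128 codons change the amino acid. The end of each of the 10 genes' RNA, its last 500 bases, had no other annotated transcript with a stretch of at least 80 bases at 98% identity. Copies that match elsewhere in the RNA were not searched for.

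The equal proteins came from unequal RNAs. H3f3a was at 1373 CPM (1350 to 1397) and 1173 CPM (1151 to 1195) in Ery 1, 4186 and 2774 CPM in Ery 3, and 8007 and 3973 CPM in Ery 5. In Ery 6 it was at 4771 and 2302 CPM. In CPM, H3f3b went down over the same clusters, from 1995 CPM (1967 to 2023) and 1793 CPM (1766 to 1821) in Ery 1. It was at 887 and 468 CPM in Ery 5 and 379 and 178 CPM in Ery 6. Without globin UMIs, H3f3b was at 2016 and 1837 CPM in Ery 1, and at 2161 and 2021 CPM in Ery 3. On that scale it was at 1816 and 1756 CPM in Ery 5 and fell mainly in Ery 6, to 903 and 829 CPM. H3f3a made up 40.8% (40.2 to 41.3) and 39.5% (39.0 to 40.1) of the UMIs of the pair in Ery 1. Its share was higher in each following cluster, with 53.9% and 50.4% in Ery 2, 69.7% and 65.8% in Ery 3, 83.4% and 81.4% in Ery 4, 90.0% and 89.5% in Ery 5, and 92.6% (92.3 to 92.9) and 92.8% (92.5 to 93.1) in Ery 6. As a ratio within the same cells, this share is the same on all 3 scales. It was 57.7% and 56.5% in HSPC, 86.1% and 87.9% in EryP and 40.2% and 43.2% in Mk, where H3f3b had its highest level of all groups at 3015 and 2211 CPM.

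The 250 bases upstream of the RefSeq start (GRCm38.p6) are shown for the H3f3 genes, since their RNAs diverged, and for Hist1h1c, the linker gene that rose. Capitals mark matches to the H1 box AAACACA, the CCAAT box CCAAT and the octamer ATTTGCAT, on either strand:
Hist1h1c, chr13:23738557-23738806, + strand: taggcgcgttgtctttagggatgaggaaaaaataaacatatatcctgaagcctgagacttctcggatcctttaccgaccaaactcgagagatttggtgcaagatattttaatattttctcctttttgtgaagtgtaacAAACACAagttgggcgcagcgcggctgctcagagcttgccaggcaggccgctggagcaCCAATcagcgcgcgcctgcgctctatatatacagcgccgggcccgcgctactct
H3f3a, chr1:180813606-180813855, - strand: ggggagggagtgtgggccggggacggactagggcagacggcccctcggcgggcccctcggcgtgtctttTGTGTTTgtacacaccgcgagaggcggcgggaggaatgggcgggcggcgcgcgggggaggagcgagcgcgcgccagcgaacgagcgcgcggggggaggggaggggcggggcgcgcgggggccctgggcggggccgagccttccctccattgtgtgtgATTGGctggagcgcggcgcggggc
H3f3b, chr11:116024505-116024754, - strand: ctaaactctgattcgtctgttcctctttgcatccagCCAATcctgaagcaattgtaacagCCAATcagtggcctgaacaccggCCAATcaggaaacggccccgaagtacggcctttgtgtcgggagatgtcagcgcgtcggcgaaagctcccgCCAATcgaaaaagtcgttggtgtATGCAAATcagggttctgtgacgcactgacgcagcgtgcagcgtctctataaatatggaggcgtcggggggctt
Hist1h1c held 1 H1 box, 112 bases before the start, and 1 CCAAT box, 54 bases before it. H3f3a held 1 of each, both in reverse, at 181 and 24 bases. H3f3b held 4 CCAAT boxes and 1 octamer in reverse, 74 bases before the start. Of 32851 promoters of 300 bases, 7.18% held the H1 box, 37.4% the CCAAT box and 1.74% the octamer. The G and C content of the whole promoter window was 74.0% in H3f3a and 55.0% in H3f3b, against a median of 52.7% over all promoters. Neither AGATAA, in 11.2% of all promoters, nor CCACACCC, in 3.56%, was found in the 8 of 10 genes with an entry, which says only that these letters are not in these windows.

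Between HSPC and Ery 1, the first step into the erythroid path, 4 of the 10 genes were at least 2-fold lower in both libraries and 0 were at least 2-fold higher. Of 5323 genes with at least 20 CPM in 1 of the groups in each library, 12.0% were lower and 6.18% higher by the same rule. H2afy was 12.0-fold (11.4 to 12.7) and 10.7-fold (10.1 to 11.3) lower. H1fx was 4.76-fold and 4.28-fold lower, Hist1h2bc 2.55-fold and 3.60-fold, and H2afv 2.35-fold and 2.17-fold. H2afx and H3f3a missed the limit, at 1.87-fold and 1.75-fold and at 1.72-fold and 1.72-fold lower, whereas H2afz, H3f3b and Hist1h1c had ratios between 0.996 and 1.15. Ery 1 cells held more UMIs than HSPC, and counted as UMIs per cell only H1fx and H2afy were 2-fold lower. On that scale, 382 of the 5323 tested genes were lower and 1814 higher by the same rule.

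Between Ery 1 and Ery 6, 9 of the 10 genes could be tested, and H1fx was under 20 CPM in both clusters. Hist1h1c and Hist1h2bc, 2 of the 9, were at least 2-fold higher in Ery 6 in both libraries, against 5.76% of 4757 tested genes. Hist1h1c was 9.11-fold (8.01 to 10.4) and 5.20-fold (4.52 to 6.02) higher and Hist1h2bc 7.86-fold (7.04 to 8.79) and 5.33-fold (4.70 to 6.06). These folds depend on free RNA. With 10% of it taken away, the log2 ratio of Hist1h1c was 4.46 and 3.31 in place of 3.19 and 2.38, and that of Hist1h2bc 3.51 and 3.04 in place of 2.97 and 2.41. H3f3a was 3.47-fold (3.40 to 3.55) higher in library 1 and 1.96-fold (1.92 to 2.01) in library 2, just under the limit. In library 1, 97.2% of tested genes had a smaller ratio than Hist1h1c, 96.8% than Hist1h2bc and 93.9% than H3f3a, and in library 2 these shares were 97.3%, 97.3% and 94.1%. These 3 genes thus stood near the top of all tested genes in either library.

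A further 5 genes, H1f0, H2afz, H2afy, H2afv and H3f3b, were at least 2-fold lower in Ery 6 than in Ery 1, against 78.3% of all tested genes. This share of the 9 was below the background. H2afy was 14.2-fold and 43.3-fold lower, H2afv 8.40-fold and 20.6-fold, H1f0 5.91-fold and 14.5-fold, H2afz 7.03-fold and 12.4-fold, and H3f3b 5.27-fold and 10.1-fold. The log2 ratios of these 5 genes lay between -2.40 and -5.44. With 10% of free RNA taken away, nothing was left in Ery 6 for H2afy in either library and for H2afv in library 2. Their log2 ratios of -8.20, -9.01 and -9.17 rest on 3 counts set in place of 0 and are no measure of the fall. The other log2 ratios lay between -3.11 and -7.08. The fall of H2afz and H3f3b was an average one, since 46.1% and 48.3% of tested genes had a smaller ratio than H2afz and 55.2% and 54.5% a smaller ratio than H3f3b.

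A change of scale multiplies all ratios of a library by 1 factor and leaves their order as it is. The median log2 ratio of all tested genes was -2.64 and -3.55 in CPM, -1.40 and -1.37 without globin UMIs, and -5.13 and -5.17 in UMIs per cell. Of the genes called in this comparison, 6.85% were higher in CPM, 20.4% without globin UMIs and 2.30% in UMIs per cell. Without globin UMIs, Hist1h1c was 21.5-fold and 23.6-fold higher in Ery 6, Hist1h2bc 18.5-fold and 24.2-fold, and H3f3a 8.19-fold and 8.91-fold, so that the libraries came close to each other. In UMIs per cell, Hist1h1c was 1.62-fold and 1.70-fold higher and Hist1h2bc 1.39-fold and 1.74-fold, whereas H3f3a had ratios of 0.617 and 0.640. On this scale, 0 of the genes were 2-fold higher in Ery 6 in both libraries, against 104 of 4757 tested genes. H3f3b was 29.7-fold and 30.9-fold lower per cell. H2afx changed side with the scale, with ratios of 0.654 and 0.302 in CPM and of 1.54 and 1.37 without globin UMIs.

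**Figure D2:**
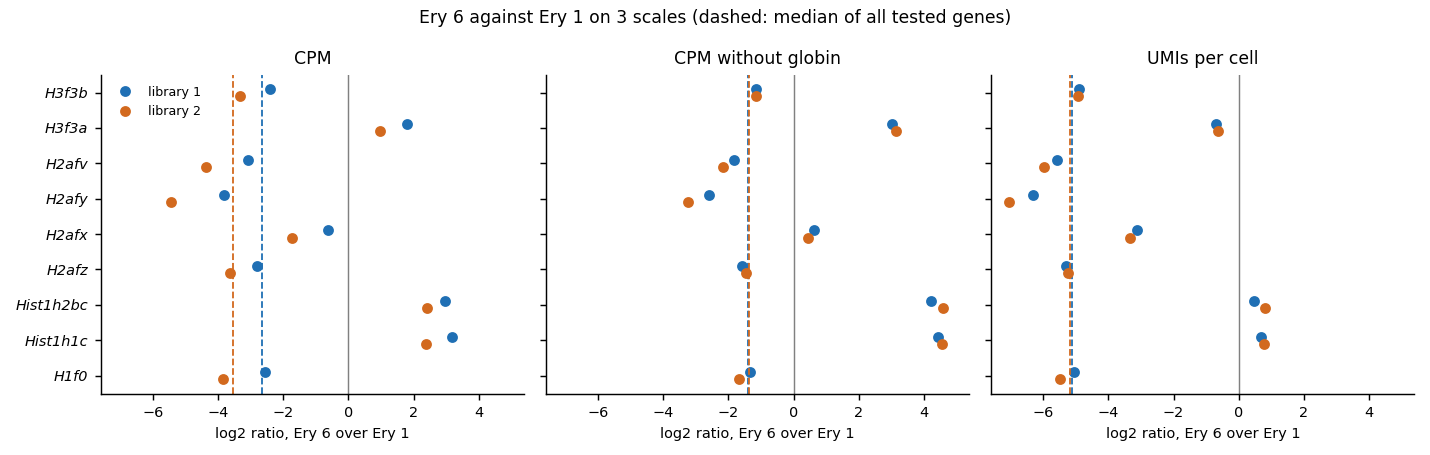
log2 ratio of Ery 6 to Ery 1 for the 9 tested genes in CPM, in CPM without globin UMIs and in UMIs per cell, with library 1 in blue, library 2 in orange and dashed lines for the median of all 4757 tested genes. Hist1h1c and Hist1h2bc lie right of 0 in all 3 panels, H3f3a in the first and second only, and H3f3b, H2afz and H1f0 lie close to the dashed lines, at -1.40 and -1.37 in the middle panel.

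EryP was set against Ery 6, the numbered cluster with the closest globin share, which was 76.7% and 82.5% of UMIs in EryP. Of 6 testable genes, 0 were at least 2-fold higher in EryP, against 4.24% of 1463 tested genes, and 2 were at least 2-fold lower, against 28.9%. Hist1h2bc was 4.35-fold (3.41 to 5.63) and 2.17-fold (1.72 to 2.78) lower, and H3f3a 3.58-fold (3.38 to 3.79) and 2.27-fold (2.13 to 2.42). Hist1h1c, at 2.13-fold and 1.84-fold lower, missed the limit in library 2. Without globin UMIs in the denominator, 0 of the 6 genes were 2-fold lower in both libraries, against 257 of the 1463 tested genes.

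Erythroid cells were also ordered by their share of adult globin UMIs, within each library, into 10 groups of equal size. Hist1h1c had 0.662 and 0.530 UMIs per cell in the first group, a peak of 2.75 in the sixth group of library 1 and of 2.44 in the seventh group of library 2, and 1.16 and 1.02 in the last. Hist1h2bc peaked in group 8 of either library, at 2.61 and 2.08 UMIs per cell. H3f3a had 32.0 and 29.6 UMIs per cell in the first group, peaks of 43.5 and 36.6 and 16.8 and 14.2 in the last. The RNA of these genes per cell was thus higher in the middle of the order than at either end, with globin at 39.5% and 69.8% of UMIs at the Hist1h1c peaks.

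H3f3b and H2afz had their highest count in the first group and declined from there. H3f3b went from 45.5 UMIs per cell in both libraries to 1.33 and 1.05 and H2afz from 83.2 and 85.0 to 1.40 and 1.12. H2afx was at 4.24 and 4.30 UMIs per cell in the first group, 4.87 and 3.41 in the seventh, and 0.387 and 0.397 in the last. Total RNA per cell went down over these groups, with medians of 24650 and 25625 UMIs in the first and 4319 and 8271 in the last. H3f3a had more UMIs per cell in each of groups 2 to 7 than in the first group of its library, while the total fell.

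**Figure D3:**
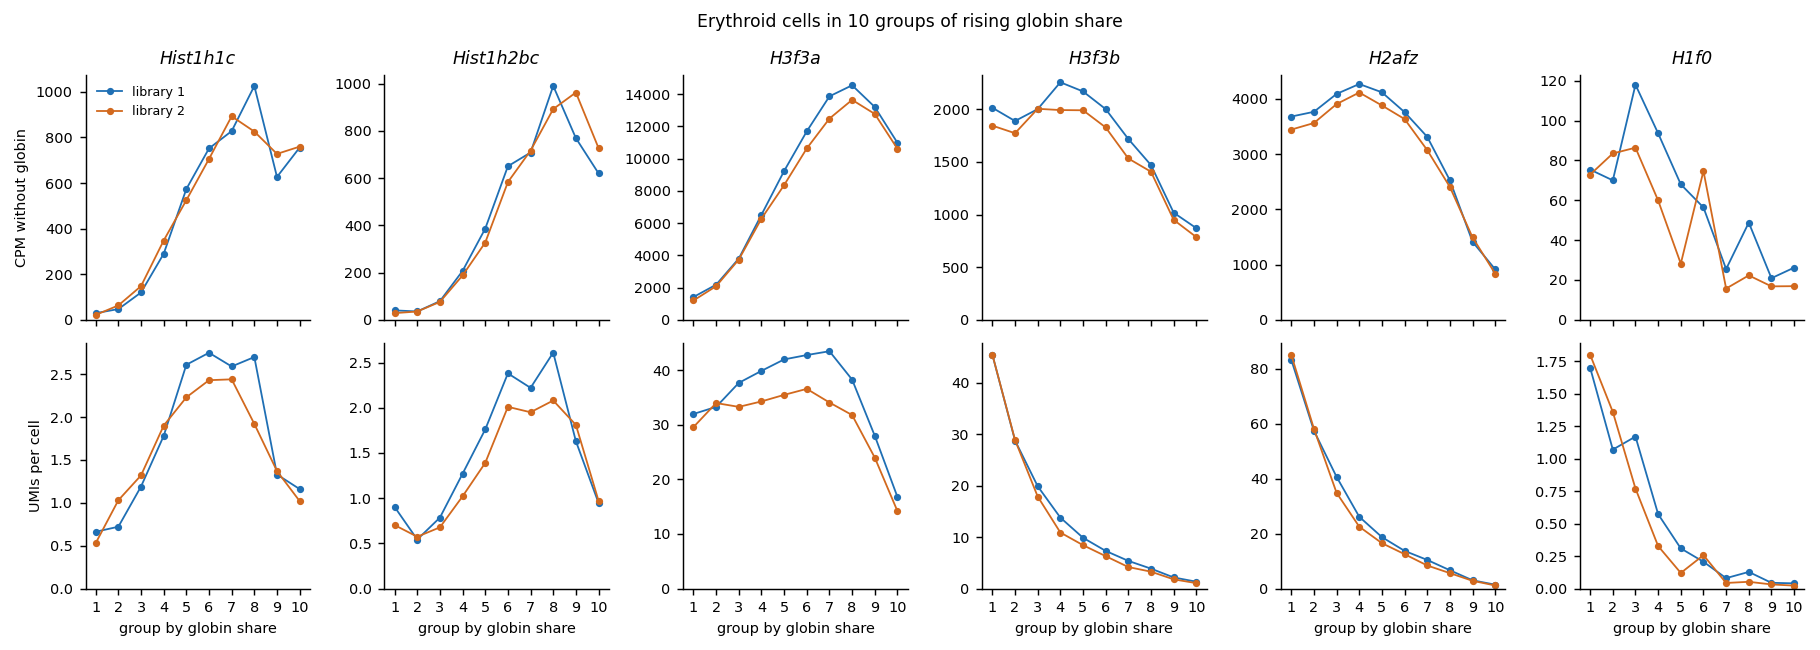
CPM without globin UMIs (upper row) and UMIs per cell (lower row) of 6 of the genes in 10 equal groups of Ery and Eryb cells by rising globin share, with library 1 in blue and library 2 in orange. Hist1h1c, Hist1h2bc and H3f3a per cell are higher in the middle groups than in the first and the last, with Hist1h1c at 2.75 and 2.44 UMIs per cell at its peaks and Hist1h2bc lower in group 2 than in group 1, whereas H3f3b and H2afz per cell decline from the first group.

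Within the clusters, cells were ranked by the share of their UMIs from a list of 20 S phase genes and from a list of 20 G2/M genes, neither with a histone gene, and split into 3 classes of equal size. Levels in the highest class were divided by those in the lowest in HSPC and Ery 1 to Ery 6 of both libraries, which gives 14 ratios per gene and list. H2afx was higher in the G2/M-high cells in 14 of 14 ratios, with intervals above 1. It was 3.39-fold (2.84 to 4.06) and 2.86-fold (2.40 to 3.43) higher in HSPC, 2.68-fold and 2.49-fold in Ery 4 and 3.62-fold and 3.51-fold in Ery 6. On the S list, H2afx was lower in the S-high cells in 10 ratios and higher in 4, those of Ery 5 and Ery 6. H2afx was the only one of the 10 genes whose 14 ratios on a list all lay on the same side of 1.

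On the S list, H2afz had intervals above 1 in 13 ratios and overlapping 1 in the remaining ratio, that of HSPC in library 1. It was 2.14-fold and 2.34-fold higher in S-high cells of Ery 5, where the G2/M ratio was 0.597 and 0.602. On the G2/M list, its intervals lay above 1 in 4 ratios, below 1 in 7 and overlapped 1 in 3. The 4 were those of HSPC, at 1.36 and 1.33, and of Ery 6, at 2.46 and 3.47. In library 2, its S ratios in Ery 1, Ery 3 and Ery 4 were 1.04, 1.20 and 1.60. Without globin UMIs these 3 ratios were 1.01, 1.05 and 1.32, and those of Ery 5 were 2.08 and 2.18. On that scale only HSPC of library 1, at 0.970, lay below 1, and no intervals were computed. The interval of H3f3b lay above 1 in 12 of 14 ratios on the S list. The interval of H2afy lay below 1 in 8 ratios on the G2/M list and above it in 0. Its ratios were above 1 in HSPC, at 1.02 and 1.04, and in Ery 6, at 1.30 and 2.28, with intervals that overlapped 1.

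Hist1h1c and Hist1h2bc changed side between clusters. In Ery 5, Hist1h1c had ratios of 1.76 and 1.77 on the G2/M list and 0.527 and 0.532 on the S list, and Hist1h2bc had 1.93 and 1.64, and 0.426 and 0.464. In HSPC, Hist1h2bc was lower in G2/M-high cells, with ratios of 0.381 and 0.476. In Ery 6, the intervals of both genes lay above 1 on both lists, and so did those of H2afz, H2afx, H2afv, H3f3a, H3f3b and H1f0. These ratios were not computed for other genes, so the share of all genes with such values is not known. In that cluster the G2/M-high cells held less globin, 54.9% against 60.6% of UMIs in library 1 and 75.4% against 80.5% in library 2, and S list UMIs were 0 in 17.6% and 21.9% of cells. Without globin UMIs, the G2/M ratios in Ery 6 were 2.01 and 2.04 for Hist1h1c, 1.91 and 2.28 for Hist1h2bc and 3.16 and 2.78 for H2afx, and the S ratios of Hist1h1c 1.25 and 1.12. The part of cell depth in these ratios was not tested.

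**Figure D4:**
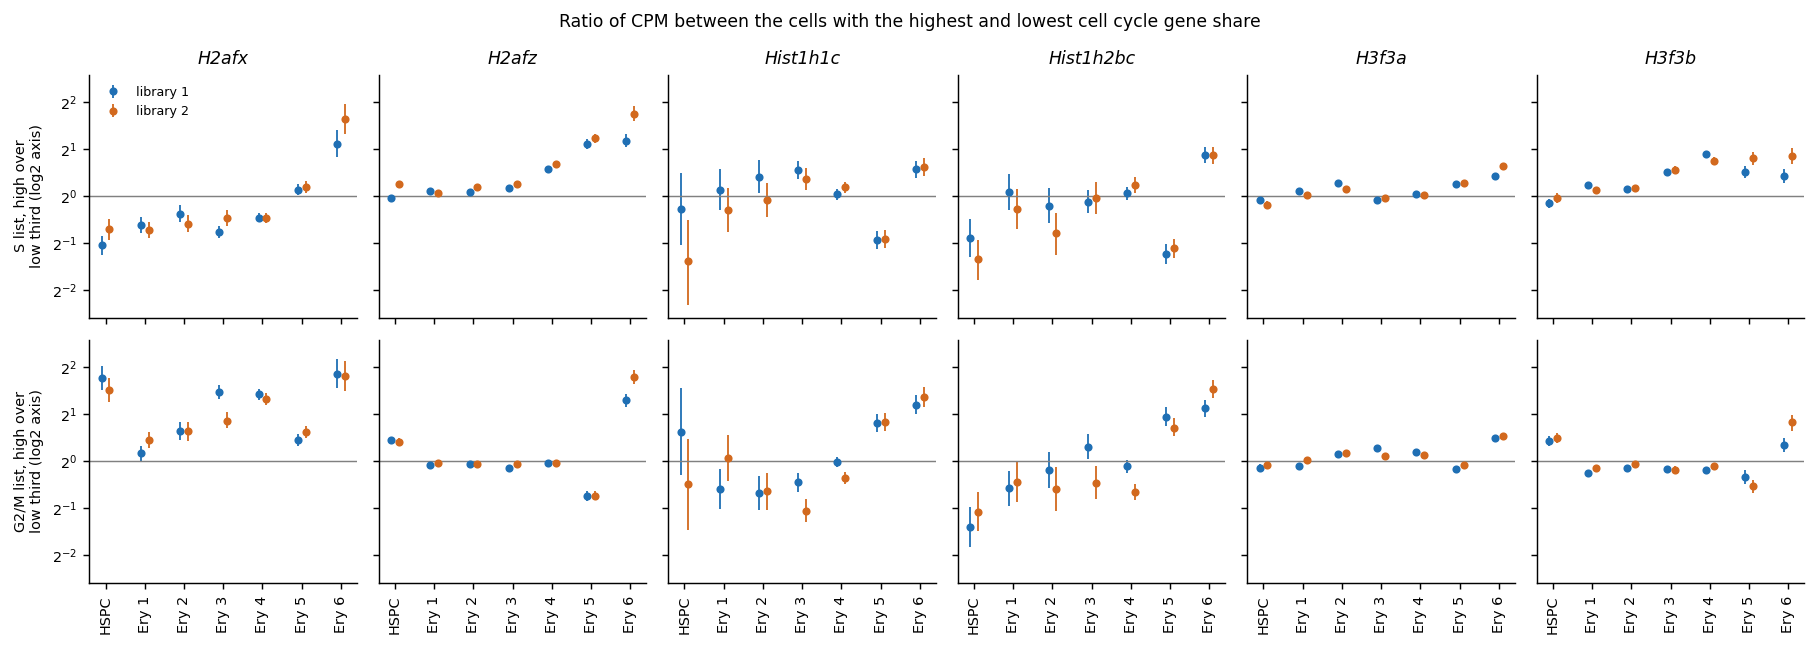
Ratio of CPM (log2 axis) between the cells with the highest and the lowest share of S genes (upper row) and of G2/M genes (lower row), by cluster, for 6 of the genes, with exact 95% counting intervals. H2afx lies above 1 for G2/M in every cluster, up to 3.62 in Ery 6, and H2afz rises on the S list from 0.975 and 1.19 in HSPC to 2.25 and 3.37 in Ery 6.

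In Mk, 2 of the genes differed between the libraries. Hist1h1c was at 1423 CPM (1340 to 1510) and 68.0 CPM (52.9 to 86.1), a ratio of 20.9, and Hist1h2bc at 975 CPM (907 to 1048) and 113 CPM (93.6 to 136), a ratio of 8.60. The other 8 genes were within 1.5-fold of each other in Mk, as with H2afz at 3184 and 3562 CPM. The highest level of Hist1h1c and Hist1h2bc of all groups in library 1 was therefore not found in library 2.

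The Mk cells of the libraries also differed in depth, with a median of 5699 UMIs in 79 cells and of 16944.5 UMIs in 56 cells. A split at 8000 UMIs, chosen after the values had been seen, put 45 and 10 cells below it and 34 and 46 cells above it. Below it, Hist1h1c was at 6973 and 519 CPM, and above it at 306 and 39.8 CPM. Hist1h2bc was at 4866 and 854 CPM below and at 192 and 67.1 CPM above. Both genes were thus higher in the summed shallow Mk cells of either library, and library 1 stayed above library 2 in both classes. In library 2, 1 of the 10 shallow cells held 21 of their 31 Hist1h1c UMIs and 31 of their 51 Hist1h2bc UMIs.

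In library 1, a minority of the Mk cells carried most of this RNA. In that library, 24 of 79 Mk cells had at least 5 UMIs of Hist1h1c and held 1062 of the 1096 UMIs, and in library 2 it was 2 of 56 cells with 37 of 69. The same cells held 686 of 751 and 38 of 115 UMIs of Hist1h2bc. Their H2afz level was 577 and 622 CPM, against 3623 and 3614 CPM in the other Mk cells. Among cells with at least 4400 UMIs, a limit near the lowest count kept in library 2 that was also chosen after the values had been seen, 10 of 44 and 2 of 56 were of this kind.

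Markers also differed between the libraries in the Mk cells with 4400 to 8000 UMIs, 10 in each library. Pf4 was at 13345 and 2864 CPM, Ppbp at 11070 and 83.7 CPM and Itga2b at 2993 and 1290 CPM, while the G2/M list was at 836 and 2462 CPM and globin at 48663 and 134114 CPM. Hist1h1c was at 6539 and 519 CPM in these cells. The cells with at least 5 UMIs numbered 9 and 3 for Pf4, 4 and 0 for Ppbp and 8 and 3 for Itga2b. The 2 sets thus differed in how many cells carried these markers. The part of depth and of the different UMI minimum in the Mk values was not tested.

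**Figure D5:**
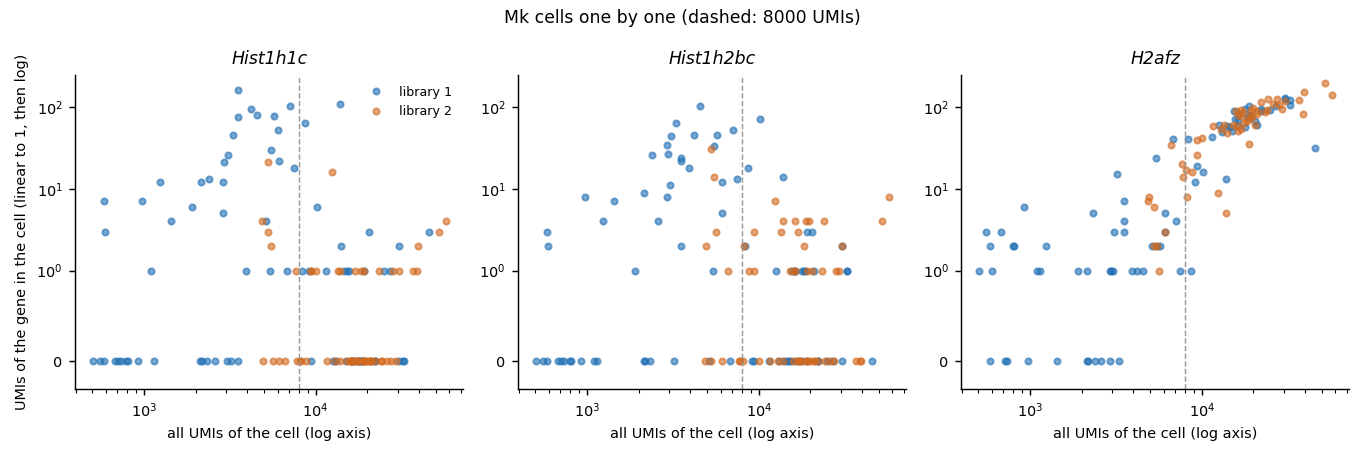
UMIs of Hist1h1c, Hist1h2bc and H2afz in each Mk cell against all UMIs of the cell (log axis; the y axis is linear to 1 and then log), with library 1 in blue and library 2 in orange and a dashed line at 8000 UMIs. Cells with many Hist1h1c UMIs, up to 163 in library 1 and 21 in library 2, lie mostly left of the line. High H2afz counts lie mostly right of it. Cells with at least 5 Hist1h1c UMIs held H2afz at 577 and 622 CPM, against 3623 and 3614 CPM in the other Mk cells.

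The libraries were also compared within single erythroid clusters. In Ery 1, 0 of 9 testable genes differed 2-fold between libraries, against 1.55% of 4826 genes. In Ery 6, 9 of the genes were lower in library 2, as with Hist1h1c at 0.495 of its level in library 1 and H3f3a at 0.483, near the median ratio of 0.506 over all tested genes. Without globin UMIs, the Ery 6 levels were 616 and 594 CPM for Hist1h1c and 11376 and 10705 CPM for H3f3a.

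Other histone genes and the factors that handle histones were counted as whole lists. Of 10 further variant genes, Cenpa, the variant of centromeres, and H2afj were testable between Ery 1 and Ery 6, and 0 of the 2 was called. Of 67 other genes with a Hist symbol, 3 could be tested and 0 was called. Of all tested genes, 5.76% were called higher in Ery 6 and 78.3% lower. Hist1h1b, a linker histone gene, was at 30.4 and 37.4 CPM in Ery 1 and 348 and 192 CPM in Ery 5. In Ery 6 it was at 38.3 and 20.9 CPM, back near its start on this scale, unlike Hist1h1c. Globin took up 1.07% and 2.37% of UMIs in Ery 1 and 58.1% and 78.5% in Ery 6. Hist1h1b was not computed without globin UMIs, so a return to its start on that scale was not tested. Hist1h2ap, with 801 and 18.7 CPM in Ery 1, cannot be compared between the libraries.

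Of 20 histone chaperones and exchange factors, 18 could be tested between Ery 1 and Ery 6 and 17 were at least 2-fold lower in Ery 6, against 78.3% of all tested genes. Set went from 1166 and 1065 CPM to 32.3 and 16.5 CPM, Nap1l1 from 667 and 538 CPM to 39.4 and 17.4 CPM, Nasp from 352 and 352 CPM to 18.1 and 9.79 CPM and Ssrp1 from 322 and 342 CPM to 18.3 and 11.9 CPM.

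For each gene, the genes with the most similar levels over the 13 cell groups were found by Pearson's r of log2(CPM + 10) among 7349 genes, taking the lower r of the libraries. The points share libraries and globin content, and r is given as a description. H2afy was closest to Rnf130 (0.98 and 0.98), Ccdc28b and Foxp1, and H2afx to Cdca2 (0.95 and 0.92), Arl6ip1 and Ndc80. Med30 and Srsf2 were among the genes closest to H2afz (0.98 and 0.99 each). H3f3b was closest to Srsf4 (0.97 and 0.98), Ccar1 and Rbm39, and H2afv to Aspscr1 (0.97 and 0.98), Arid1a and Usf2. H3f3a was closest to Fam53b (0.93 and 0.91), Nusap1 and Slc1a5, so that the H3f3 genes shared none of their 3 nearest genes. H1f0 was closest to Ndufs4 (0.96 and 0.97), Smim7 and Strn3 and H1fx to Igf2bp2 (0.97 and 0.94), Fndc4 and Mex3a. Hist1h1c was closest to Srxn1 (0.88 and 0.89), Gtpbp2 and Hist2h3c1, and Hist1h2bc to Dnajb2 (0.79 and 0.81), Gtpbp2 and Hist2h3c1. These last genes shared Gtpbp2 and Hist2h3c1 here, and only Hist2h3c1 with a pseudocount of 1.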

How the data were processed

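Cells of 1 wild-type liver at E12.5 (C57BL/6 in the labels, C57BL/6J in the methods) were sequenced by the authors as 2 technical replicate libraries on the 10x Chromium platform. The authors deposited raw UMI counts for all barcodes and for called cells, not normalized, and a table with the cluster and type of each kept cell. According to the submitters' processing notes, bcl2fastq 2, Cell Ranger 2.1.1, Seurat 3.2.0 and the mm10 genome were used. The matrix header of library 1 names software version 3.0.0, so the libraries may have been counted differently. The methods state that doublets were sorted out before encapsulation, and no caller was run here. The kept cells held 51969226 and 62738015 UMIs.

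UMIs were summed per cell group and library over 10537 cells and scaled to CPM, with exact Poisson, Clopper-Pearson and conditional binomial 95% intervals. A gene was tested with at least 20 CPM in 1 of the groups compared in each library and called at 2-fold in both. Where no UMI was found, the upper limit is that of 3 counts. Shares of cells were expected values at 3600 UMIs. Cell cycle classes used groups of at least 150 cells. The genes named were the 10 genes, the 3 genes most like each (1 of them is not reported here) and at most 4 of each further list with the highest level in Ery 1 of library 1, and the genes and lists were chosen with earlier results of these data known. Cell type markers beyond that rule were named after their values were seen. Sequences are from the GRCm38 genome with its GENCODE annotation and from RefSeq (GRCm38.p6). Alternatives were globin UMIs left out, UMIs per cell, a filter on cells, free RNA taken away, the deepest cells left out, other folds and each library alone. Scripts were tested on simulated data. The scripts ran in Python 3.11.15 with scipy 1.17.1, numpy 2.4.6, Biopython 1.88, pandas 2.3.3 and matplotlib 3.10.9, and BLAST 2.17.0 was used.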

Additional observations from a re-analysis of the deposited data

Results flagged for a closer look

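For each gene and list, the ratio between the cells with the highest and the lowest share of cell cycle genes was averaged over the libraries. A gene was listed where the intervals of both libraries lay above 1 in a cell group and below 1 in another. Of such groups, that with the highest mean ratio was set against that with the lowest. The values below are the quotients of these mean ratios, and thus belong to the most distant pair of groups. The difference between the groups was not tested in any of them, and since Ery 6 stands in all but 1, the globin and depth values given for Ery 6 in the report belong beside them.

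On the G2/M list, the quotient was 4.87 for H2afz and 2.03 for H3f3b between Ery 6 and Ery 5, 1.55 for H3f3a between the same clusters, 4.10 for Hist1h1c between Ery 6 and Ery 3, and 5.89 for Hist1h2bc between Ery 6 and HSPC. For H1f0 and H2afv it was 4.27 and 3.58 between Ery 6 and Ery 1.

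On the S list, the quotient was 2.86 for Hist1h1c and 4.10 for Hist1h2bc between Ery 6 and Ery 5, which have the opposite sides described in the report. Between Ery 6 and HSPC it was 5.27 for H1f0, 3.14 for H2afv and 4.77 for H2afx. It was 1.51 for H3f3a between Ery 6 and Ery 3 and 4.85 for H2afy between Ery 4 and Ery 1.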

How the results depend on the processing

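The counts of genes past 2-fold kept their value or stayed within 1.5 times of it under most alternatives. The 4 genes lower in Ery 1 than in HSPC were 2 in UMIs per cell and 2 at 3-fold, H1fx and H2afy in either. The 2 genes higher in Ery 6 than in Ery 1 were 0 in UMIs per cell. They were 3, with H3f3a added, without globin UMIs, with 10% of free RNA taken away, in cells with 1000 or more genes and less than 10% of mitochondrial UMIs, and at 1.5-fold. The filter on cells kept 99.7% of Ery 1 cells in either library. It kept only 14.5% and 11.4% of Ery 6 cells and 7.65% and 9.32% of EryP cells. Counts and ratios with this filter thus rest on a small part of Ery 6 and EryP. The 2 genes lower in EryP than in Ery 6 were 0 without globin UMIs and 0 at 3-fold. They were 1 (Hist1h2bc) with the filter on cells and 5 with free RNA taken away. With each library left out, this last count ranged from 2 to 4, the 4 being that of library 1 alone (Hist1h1c, Hist1h2bc, H2afx and H3f3a). The other counts by single libraries were 2 to 3 higher and 5 to 6 lower in Ery 6, and 4 lower in Ery 1. With a minimum of 4400 UMIs in both libraries, chosen after the data had been seen, the same genes were called in all 6 counts.

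Of 50 log2 ratios between cell groups, 29 moved by more than the SD between the libraries without globin UMIs, 40 in UMIs per cell, 28 with free RNA taken away, 20 with the filter on cells and 6 without the deepest cells. None of the ratios past 2-fold in both libraries turned sign. Of the others, 5 did so in UMIs per cell (H1f0 and, in library 2, Hist1h1c in Ery 1 over HSPC, and H3f3a in Ery 6 over Ery 1), 5 without globin UMIs (H2afx in Ery 6 over Ery 1, H2afz and, in library 1, H3f3b in EryP over Ery 6), 4 with the filter on cells (H2afx in library 1, H2afz, and H3f3b in library 2, in the same comparisons), and 0 with free RNA taken away or without the deepest cells. Of 260 levels in CPM, 97 moved with free RNA taken away, 36 with the filter and 37 without the deepest cells. Of 320 shares of cells, 233 left their counting interval with thinning.

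With 2 classes of cells in place of 3, 13 of 266 log2 ratios turned sign, 3 of them with an interval that had excluded 1. Of these 3, the log2 ratio for S of H2afy in HSPC of library 1 was 0.02 and that for G2/M of H1f0 in Ery 3 was 0.01 and -0.26. With 10 globin groups, H2afx in library 1 was at 186 CPM in the first, 360 CPM in the ninth and 86.8 CPM in the last. With 5 groups in their place, its log2 ratio of the last over the first was 0.34, so that the sign turned. The cause was not tested. Of the 3 nearest genes by level, 1 to 3 were kept for each gene with a pseudocount of 1. No paired analysis was possible because there was 1 group.

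Depth limits the late erythroid values of H1f0, H1fx and H2afy, which rest on 2 to 71 UMIs in Ery 6 of a library.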
